A study of Danio rerio with 10 samples.

Results

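Cytosolic ribosomal protein genes encode the proteins that assemble with ribosomal RNA into the large and small subunits of the ribosome, the particle that translates mRNA in the cytosol. They are among the most abundant mRNAs of growing cells, and their products are needed in fixed proportions. Their mRNAs begin with a terminal oligopyrimidine (TOP) stretch, through which translation is adjusted by Tor signalling, and in the liver they serve the high output of secreted plasma proteins. The genes described here were chosen by name: every identifier whose zebrafish gene name is rpl or rps followed by a digit, or rplp0, rplp1, rplp2 or rpsa, without the rps6k and rps19bp names. This rule found 82 of the 32105 identifiers in the count tables, 46 with large-subunit and 36 with small-subunit names, on 78 distinct symbols. In all, 4 symbols, rpl5 and rps26 among them, each stood on a pair of identifiers, which are reported separately, and reads shared between such paralogs make their individual counts uncertain. No identifier was named rpsa.

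The libraries were made from dissected zebrafish livers of the nAtf6 line, allele C, in which the hepatocyte promoter fabp10 drives the nuclear fragment of Atf6, a transcription factor of the unfolded protein response, fused to cherry, and cmlc2 drives GFP in the heart as the mark used for sorting. At 5 dpf (days post fertilization), 3 libraries of nAtf6 TG larvae and 3 of non-transgenic siblings each came from a pool of 25 livers; by their protocol the parents were the transgenic line and wild-type TAB 14 fish, and rRNA was depleted with Ribo-Zero Gold, although the molecule entry names polyA RNA. At 78 hpf (hours post fertilization), 4 libraries each came from a pool of 20 livers after selection of polyA RNA, from a cross with Tg(fabp10a:CAAX-EGFP), which the description of the series names for both ages. The titles and the deposited names of the 78 hpf libraries give opposite groups: 2 libraries named Natf6 are titled sibling, and 2 named SIBS are titled transgenic. The treatment text assigns green hearts to Natf6 and no green hearts to Sibs, so the deposited names are used here and differences are Natf6-named minus SIBS-named; under the titles every sign of 78 hpf turns. Since age and library preparation differ together, ages are not compared with each other.

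Counts on genes were between 17622825 and 22963880 per library at 5 dpf and between 4868321 and 6354867 at 78 hpf. As a check of the labels, atf6 had 447 to 559 CPM (counts scaled to a common library size) in nAtf6 TG libraries, against 73.4 to 100.5 CPM in siblings. At 78 hpf atf6 had 189 and 326 CPM in the Natf6-named libraries, against 80.8 and 48.5 CPM in the SIBS-named ones, and hspa5, which encodes the ER chaperone Bip, had 11374 and 14584 against 2066 and 1287 CPM. Reads of the transgene can fall on atf6. All 12 identifiers of a hepatocyte marker list had counts in every library. So had all 11 of an exocrine pancreas list and all 11 of a muscle list, so such counts cannot check the label of liver. Sibling library 2 of 5 dpf stood apart from the other siblings: its chi-square per degree of freedom was 83.3 and 88.4 against siblings 1 and 3, which had 13.1 between them. Likewise nAtf6 TG library 1 stood at 54.5 and 59.8 from libraries 2 and 3, which had 2.90 between them. Values of single ribosomal protein genes at 5 dpf are followed by the value without sibling library 2.

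The ribosomal protein genes together took close to the same share of the libraries in both groups of 5 dpf. The 82 genes held 3.81%, 3.90% and 4.00% of the counts on genes in nAtf6 TG livers, against 3.83%, 3.98% and 4.07% in siblings. The 2 groups overlapped, and the differences within each group were as large as those between them. The large-subunit genes had 1.57, 1.55 and 1.53 counts for each count of the small-subunit genes in nAtf6 TG livers, against 1.57, 1.56 and 1.54 in siblings. At 78 hpf the share was 9.38% and 9.46% in the Natf6-named libraries, against 8.24% and 9.23% in the SIBS-named ones, so the groups did not overlap and SIBS-named library 1 was the lowest. Without the 10 genes with the highest counts in each library it was 11.0% and 11.2% in the Natf6-named libraries. In the SIBS-named ones it was 10.3% and 11.4%, so the groups overlapped, with SIBS-named library 2 the highest of the 4. The ratio of large to small was 1.52 or 1.53 in all 4. The exact binomial 95% interval of the share in nAtf6 TG library 1 ran from 3.80% to 3.82%, which covers counting error only and is typical of the 5 dpf libraries.

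**Figure D1:**
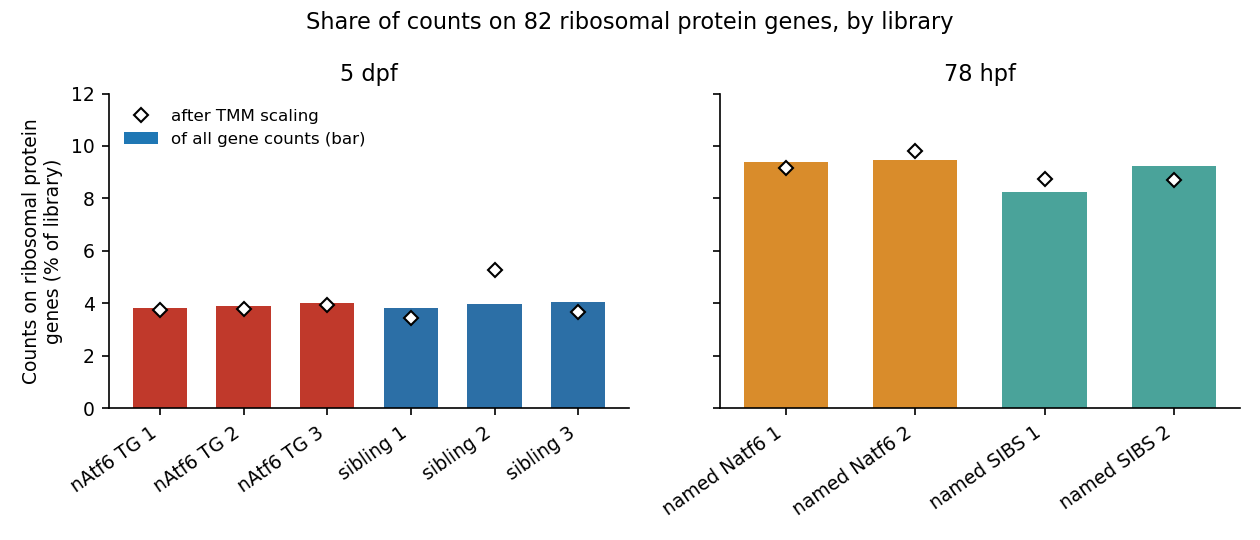
Bars give the percentage of gene counts on the 82 ribosomal protein genes in each of the 10 libraries, and diamonds the same counts over the library size after TMM scaling. The bars of 5 dpf lie between 3.81% and 4.07%, while the diamond of sibling library 2 stands at 5.26%, above the other 5.

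A share is relative to all other genes, and a few liver genes took much of each library. The 10 genes with the highest counts, taken in each library separately, included no ribosomal protein gene. They took 31.6% to 36.6% in nAtf6 TG livers, against 36.8% to 43.1% in siblings, highest in sibling library 2. Without the 10 genes of each library, the ribosomal protein genes held 5.71% to 6.01% in nAtf6 TG livers. They held 6.10% and 6.44% in siblings 1 and 3 and 7.0003% in sibling 2, so the groups did not overlap, by a small margin. TMM scaling, in which edgeR aligns the libraries on the bulk of their genes, gave factors of 1.02 to 1.04 for nAtf6 TG libraries and of 1.11, 0.758 and 1.11 for siblings. On the scaled library sizes the share was 3.75%, 3.77% and 3.94% in nAtf6 TG livers, against 3.45%, 5.26% and 3.69% in siblings.

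No ribosomal protein gene passed the test at 5 dpf. Of the 82 genes, 81 had enough counts to be tested, and 0 of 81 reached an adjusted p under 0.05 (the quasi-likelihood test of edgeR, with Benjamini-Hochberg adjustment over all genes), where 21.2% of the 18470 genes tested did. DESeq2 also called 0 of them, and 0 had an unadjusted p under 0.05, against 37.2% of all genes. The log2 fold changes were small: their median was -0.067, beside -0.036 over all genes tested, with the middle 50% of members between -0.16 and -0.0088 and the whole range from -0.50 (rps20) to 0.28 (rpl7l1). All 81 lay between -0.5 and 0.5, where 51.7% of all genes did. The 95% interval lay within -1 to 1, a change under 2-fold either way, for 80 of 81 genes, against 40.6% of all genes; rps20 was the exception, with an interval of -1.05 to 0.057. The 46 large-subunit genes had a median of -0.077 and the 35 small-subunit genes tested one of -0.054. The untested member, rps11l, had 2, 3 and 2 counts in nAtf6 TG libraries, against 2, 0 and 6 in siblings, a level at the limit of 3 counts that a count of 0 allows.

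**Figure D2:**
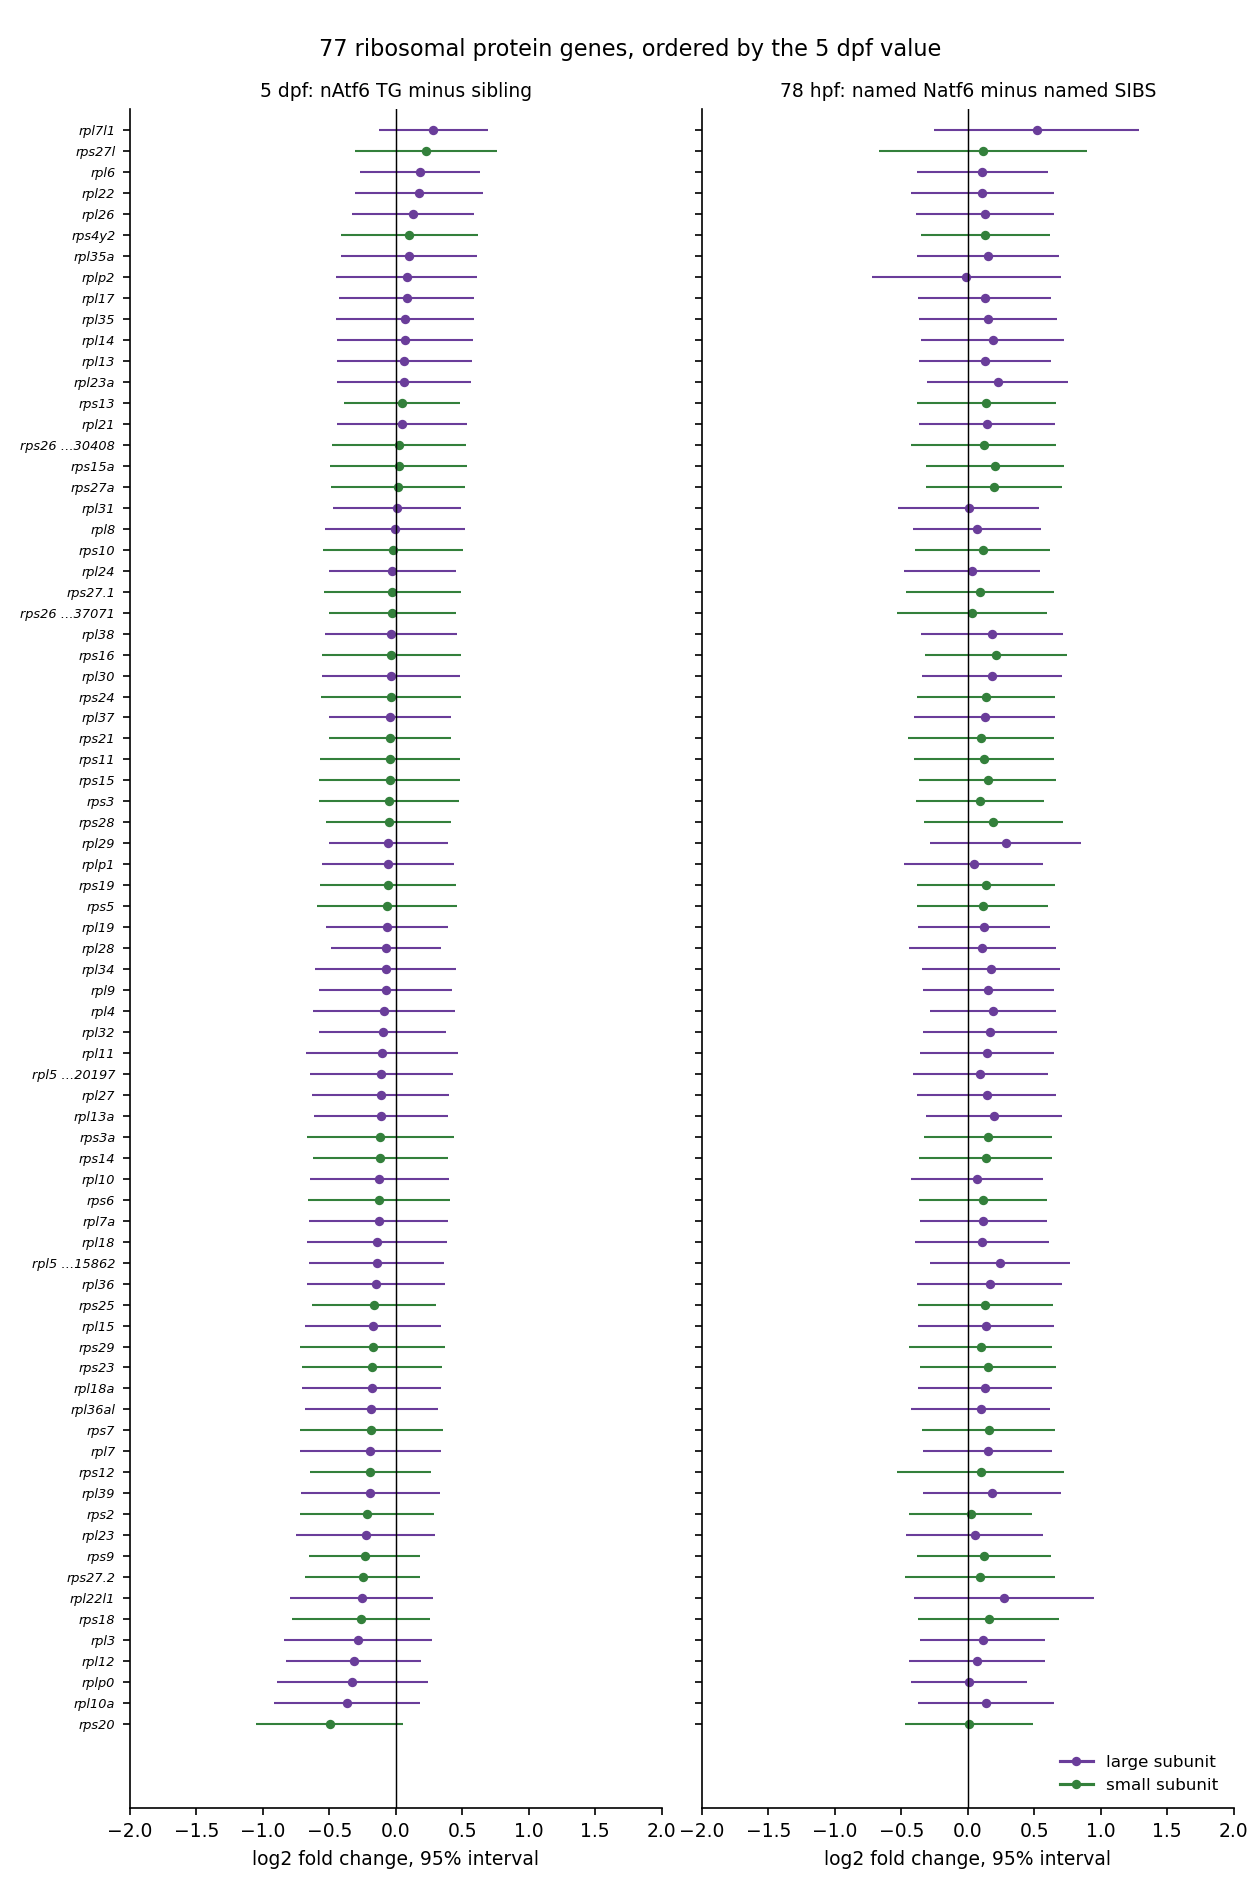
Each line is 1 of 77 members, with its log2 fold change and 95% interval at 5 dpf (nAtf6 TG minus sibling, 3 against 3 pools) and at 78 hpf (Natf6-named minus SIBS-named, 2 against 2 pools), in the order of the 5 dpf value and coloured by subunit. Every interval spans 0, and the lowest value of 5 dpf is that of rps20 at -0.50.

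The position of the family at 5 dpf turned on 1 library. Sibling library 2 was the highest of the 3 siblings for 80 of 81 genes after TMM scaling and the highest of all 6 libraries for 76. Its members lay a median of 0.40 log2 units above their own mean over the 6 libraries, against -0.20 and -0.089 in siblings 1 and 3 and -0.055, -0.049 and 0.0061 in the nAtf6 TG libraries. The spread between pools differed accordingly: the median SD was 4.01% of the mean in nAtf6 TG livers, against 24.1% in siblings. All these values are TMM-scaled. The factor of sibling library 2 was 0.758, against 1.11 in siblings 1 and 3, and applies to all of its genes. Before scaling, its share of counts on the family was 3.98%, between the 3.83% and 4.07% of siblings 1 and 3. After scaling, the hepatocyte markers were also highest in sibling library 2. Their 12 identifiers summed to 72113, 58971 and 60400 TMM-scaled CPM in nAtf6 TG livers, against 90638, 152631 and 100801 in siblings. Siblings 1 and 3 thus also lay above all nAtf6 TG libraries. Of the 12 identifiers, 1 was above 0, where 47.7% of all genes were, and 2 were called lower, where 7.48% were. Their median log2 fold change was -0.73, and -0.37 without sibling 2. The part of liver cell content in the position of sibling library 2 was not tested.

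**Figure D3:**
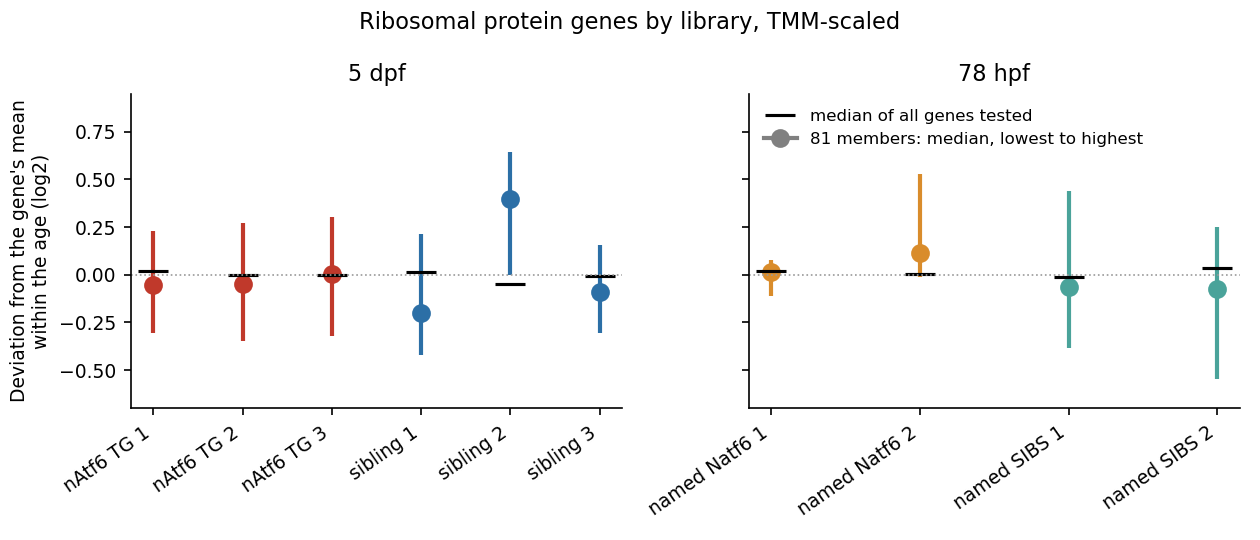
For each library, the circle is the median and the line the full range, over 81 ribosomal protein genes, of the log2 level (TMM-scaled CPM plus 0.5) minus that gene's mean over the libraries of the same age; black bars give the median of all genes tested. Sibling library 2 stands at 0.40, while the other 5 libraries of 5 dpf lie between -0.20 and 0.0061.

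With sibling library 2 left out, the family stood slightly higher in nAtf6 TG livers. The median was then 0.15, beside -0.055 over all genes, and 70 of 81 genes were above 0, against 20 of 81 with it kept. With it kept 47.7% of all genes were above 0, and the share of all genes without it is not given here. In 47 genes both remaining siblings lay below all nAtf6 TG libraries and in 2 above them, where 31.0% and 34.4% of all genes did so. Only rpl7l1 (log2 fold change 0.44, adjusted p = 0.0463) and rps27l (0.50, adjusted p = 0.0438) passed the test in that fit, 2 of 81 where 37.9% of all genes passed. All 81 intervals still lay within -1 to 1. Leaving out sibling 1 instead gave a median of -0.20, and leaving out sibling 3 one of -0.15. No single library other than sibling 2 turned the sign of the family's median when left out. The sign also followed the scaling and the filter: on library totals alone the median was 0.019, with 45 of 81 genes above 0, and without a filter on low counts it was 0.0085. Upper-quartile factors moved it the other way, to -0.29, beside a median of -0.27 over all genes. With them 1 of 81 members was called, where 24.2% of all genes were. Of the members 2 were above 0 and 12 had an unadjusted p under 0.05. The shares of all genes above 0 and at such a p in these settings are not given here.

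The large-subunit genes with the highest levels were rplp0, rpl3, rpl4 and rpl7a, and the small-subunit gene with the highest was rps2; these 5 had the highest mean CPM of all members at both ages, in counts that are not divided by transcript length. rplp0, which encodes the stalk base of the large subunit and is a widely used reference gene in qPCR, had 1859, 1697 and 1851 TMM-scaled CPM in nAtf6 TG livers, against 1865, 2949 and 1973 in siblings. The groups did not overlap, but nAtf6 TG library 1 and sibling 1 were nearly level. The fitted difference was -0.33 on the log2 scale (standard error 0.24, adjusted p = 0.36), and -0.072 without sibling 2. rpl3, which lies close to the peptidyl transferase centre, averaged 1395 ± 66.1 CPM in nAtf6 TG livers and 1703 ± 445 in siblings (SD, n = 3 each), and rpl10a, a protein of the L1 stalk, 594 ± 34.8 and 765 ± 207. Their log2 fold changes were -0.29 and -0.37, with adjusted p = 0.41 and 0.29, and they came to -0.034 and -0.11 without sibling 2. rpl4, with 1052 ± 40.0 in nAtf6 TG livers and 1119 ± 281 in siblings, and rpl7a, with 991 ± 13.6 and 1084 ± 256, differed by less than the spread between siblings. Their log2 fold changes were -0.089 and -0.13, and 0.15 and 0.10 without sibling 2. rps2, a protein near the mRNA entry channel, had 893, 936 and 1038 CPM in nAtf6 TG livers, against 947, 1361 and 1021 in siblings, a difference of -0.22 with overlapping groups, and -0.024 without sibling 2.

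Only 4 members had groups that did not overlap at 5 dpf, all 4 lower in nAtf6 TG livers, which is 4 of 81 where 17.2% of all genes tested were apart in that direction. In the other direction 0 of 81 were apart, against 22.6% of all genes, and in either direction 39.8% of all genes were. They were rplp0, rps20, rpl12 and rps27.2. rps20, a protein of the small-subunit head, had 582, 534 and 618 CPM in nAtf6 TG livers, against 635, 1059 and 755 in siblings. Its difference was -0.50 (standard error 0.24, adjusted p = 0.17), the lowest value of the family, and -0.25 without sibling 2. rpl12, which sits at the base of the stalk beside rplp0, had 535, 538 and 549 CPM in nAtf6 TG livers, against 579, 855 and 588 in siblings. That difference was -0.32 (standard error 0.22, adjusted p = 0.32), and -0.091 without sibling 2. rps27.2, 1 of the rps27 paralogs, had 163, 159 and 159 CPM in nAtf6 TG livers, against 165, 229 and 177 in siblings, a difference of -0.25 (adjusted p = 0.36), and -0.078 without sibling 2. In these 4 genes, on TMM-scaled CPM, sibling 1 lay just above the nAtf6 TG libraries, and sibling 2 stood far above all others. On library totals alone the differences of rps20, rplp0, rpl12 and rps27.2 were -0.40, -0.23, -0.23 and -0.17. rps18, the remaining gene among the 6 lowest, averaged 445 ± 14.6 CPM in nAtf6 TG livers and 533 ± 134 in siblings, with overlapping groups and a difference of -0.26, and -0.027 without sibling 2.

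**Figure D4:**
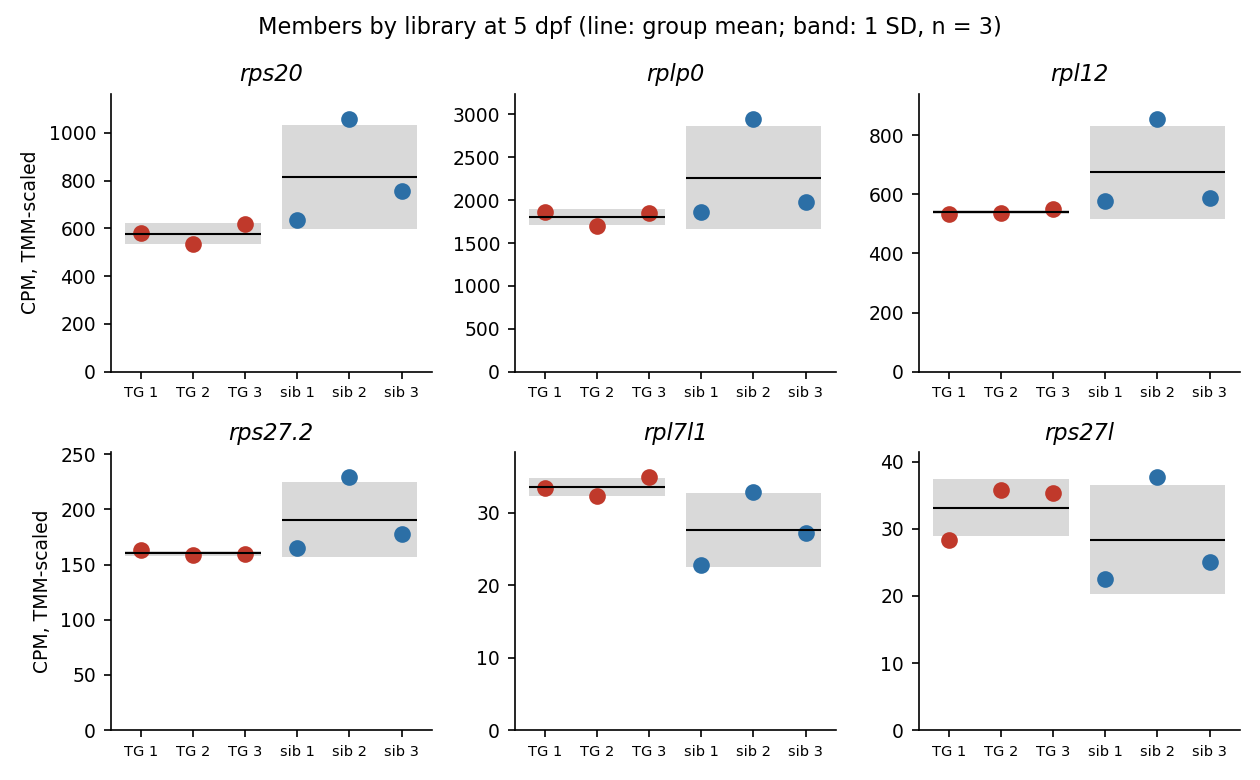
TMM-scaled CPM of 6 members in each library of 5 dpf, with the group mean (line) and 1 SD (band, n = 3 pools); axes start at 0. In rps20, rplp0, rpl12 and rps27.2 all siblings lie above all nAtf6 TG libraries with sibling 2 far above the rest, and in rpl7l1 and rps27l sibling 2 lies among the nAtf6 TG libraries or above them.

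At the upper end stood a pair of divergent paralogs. rpl7l1, a relative of the large-subunit gene rpl7, had 33.5, 32.3 and 34.9 CPM in nAtf6 TG livers, against 22.8, 32.9 and 27.23 in siblings, a log2 fold change of 0.28 (standard error 0.17, adjusted p = 0.28). rps27l, an rps27 relative that in humans is a p53 target, had 28.3, 35.8 and 35.3 CPM in nAtf6 TG livers, against 22.5, 37.7 and 25.0 in siblings, a difference of 0.23 (standard error 0.23, adjusted p = 0.50). The values without sibling 2 were 0.44 and 0.50. In both, siblings 1 and 3 were below all nAtf6 TG libraries and sibling 2 was not. The next highest were rpl6 (0.18), rpl22 (0.17), rpl26 (0.13) and rps4y2 (0.10), with adjusted p-values of 0.53, 0.57, 0.66 and 0.77. Without sibling 2 these stood at 0.33, 0.23, 0.28 and 0.33. rpl22 had 125, 186 and 186 CPM in nAtf6 TG livers, against 137, 154 and 148 in siblings, so nAtf6 TG library 1 was below all 3 siblings.

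Ratios of counts within a library do not depend on the scaling, and they set paralogs against their family members. Of 9 such ratios at 5 dpf, 6 had groups that did not overlap (5 of them are given here), each with the smallest p that 3 against 3 libraries allow in a two-sided exact permutation test, p = 0.1 (0.15 after adjustment over the 9), so none could pass 0.05. Ratios of other gene pairs were not computed at either age, so no share over such pairs stands beside these counts. Of single genes, 39.8% were apart at 5 dpf. rpl7l1 had 0.0465, 0.0455 and 0.0487 counts per count of rpl7 in nAtf6 TG livers, against 0.0339, 0.0311 and 0.0377 in siblings, a log2 difference of 0.46. rps27l per rps27.1 was 0.0892, 0.107 and 0.106 in nAtf6 TG livers, against 0.086, 0.0879 and 0.080 in siblings, a log2 difference of 0.25. Here all 3 nAtf6 TG libraries, library 1 by a small margin, exceeded the siblings, sibling 2 included. rps27.2 per rps27.1 went the other way, with 0.512, 0.475 and 0.479 in nAtf6 TG livers, against 0.633, 0.534 and 0.568 in siblings (log2 difference -0.24).

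Among the acidic stalk proteins, which recruit the translation factors to the ribosome, rplp1 per rplp0 was 0.285, 0.302 and 0.282 in nAtf6 TG livers, against 0.255, 0.232 and 0.237 in siblings. For rplp2 per rplp0 the values were 0.107, 0.115 and 0.139 in nAtf6 TG livers, against 0.0916, 0.0878 and 0.0938 in siblings. The log2 differences were 0.26 and 0.39; both ratios share their denominator. By themselves rplp1 (-0.057, adjusted p = 0.87) and rplp2 (0.083, adjusted p = 0.81) did not pass the test, nor did rplp2l, a stalk gene outside the naming rule (-0.16, adjusted p = 0.63). Without sibling 2 rplp1 stood at 0.16 and rplp2 at 0.30. The ratios of the rpl5 pair (1.06 to 1.12 against 1.07 to 1.15), of the rps26 pair (1.58 to 1.75 against 1.45 to 1.71) and of rpl22l1 to rpl22 overlapped. rpl22l1 to rpl22 varied most, with 0.851, 0.623 and 0.654 in nAtf6 TG livers, against 0.774, 1.17 and 0.827 in siblings (exact permutation p = 0.3).

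**Figure D5:**
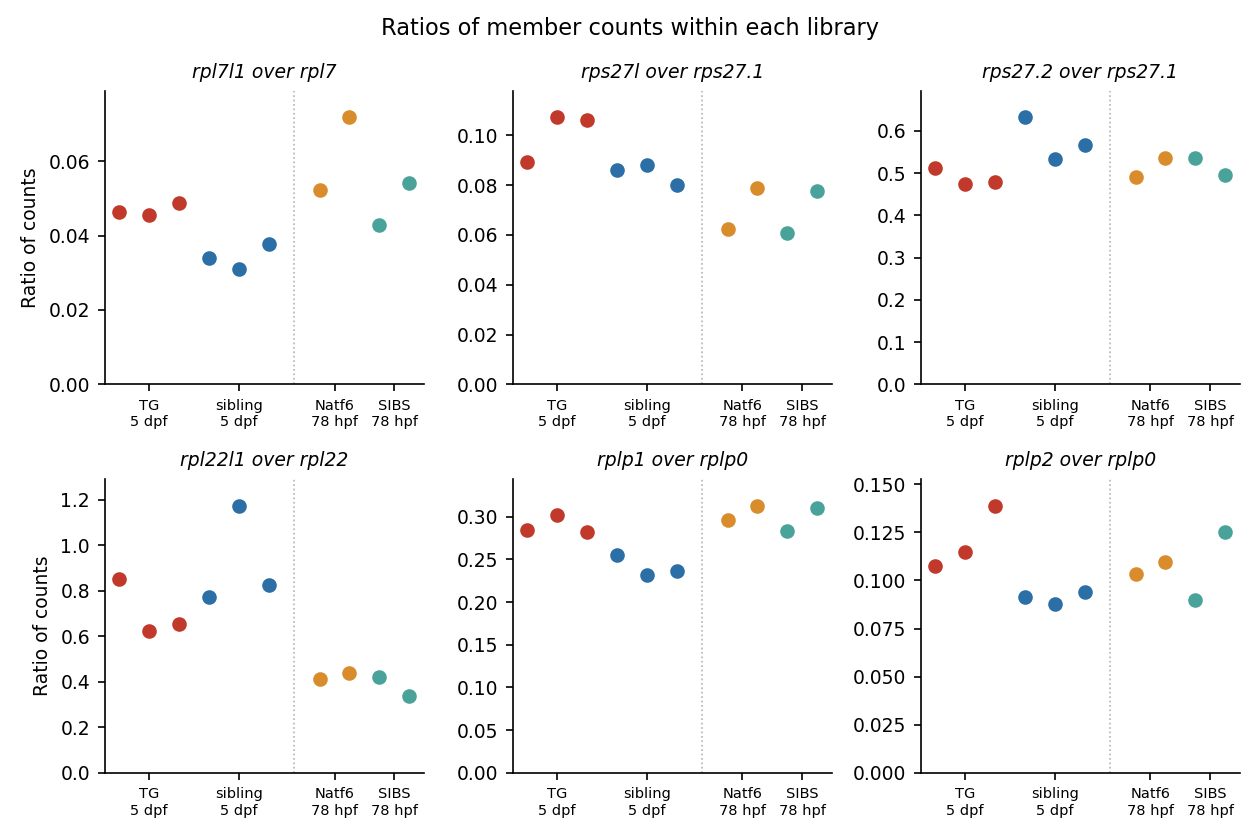
Counts of 1 member divided by counts of another in each of the 10 libraries, with the 5 dpf libraries left and the 78 hpf libraries right of the dotted line; axes start at 0. In rpl7l1 over rpl7, rps27l over rps27.1, rplp1 over rplp0 and rplp2 over rplp0 the 3 nAtf6 TG libraries of 5 dpf lie above the 3 siblings, and in rps27.2 over rps27.1 below them.

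Members whose loss of function in humans causes Diamond-Blackfan anaemia, a failure of red cell production, did not pass the test at 5 dpf either. The 12 identifiers reported here, of rpl5, rpl11, rpl26, rpl35a, rps7, rps10, rps19, rps24, rps26 and rps29, had log2 fold changes from -0.18 (rps7) to 0.13 (rpl26) with a median of -0.047, and 0 of 12 had groups that did not overlap, against 39.8% of all genes. Without sibling 2 all 12 were above 0, between 0.062 (rps7) and 0.34 (rpl35a), with a median of 0.20. rpl11, which with rpl5 can bind Mdm2, averaged 451 ± 18.1 CPM in nAtf6 TG livers and 485 ± 149 in siblings, and rps19 averaged 366 ± 7.37 in nAtf6 TG livers and 381 ± 96.3 in siblings (SD, n = 3 each). Their differences were -0.10 and -0.058, and 0.19 and 0.18 without sibling 2. Members with known functions beyond the ribosome were likewise not called: rps6, the substrate of S6 kinase, stood at -0.13, rpl13a at -0.11 and rps3 at -0.050, and without sibling 2 at 0.12, 0.10 and 0.18. Of the remaining members with variant names, rpl36al stood at -0.18, rps27.1 at -0.026 and rpl22l1 at -0.26, and without sibling 2 at 0.043, 0.21 and 0.017.

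Other genes of the translation apparatus were counted by list at 5 dpf, beside 13.7% of all genes called higher and 7.48% called lower. Of 4 ribosome components that the naming rule left out (fau, faub and rack1 among them), 0 passed the test and the median was -0.10, from -0.29 in faub to -0.011 in fau. Of 38 translation initiation factors tested, 7 were called higher and 0 were called lower, with a median of 0.086. eif5, which triggers GTP hydrolysis at the start codon, averaged 877 ± 223 CPM in nAtf6 TG livers and 99.4 ± 17.1 in siblings (SD, n = 3 each; log2 fold change 3.14, standard error 0.28, adjusted p = 0.00054). eif4eb, a cap-binding protein gene, stood at 1.26 (adjusted p = 0.0096), while eif4ba (-0.41) and eif3e (-0.29) were lowest and did not pass. Of 10 elongation factor identifiers 1 was called, an eef1a1 identifier (ENSDARG00000039502) with 8, 2 and 4 counts in nAtf6 TG libraries, against 191, 113 and 238 in siblings (adjusted p = 0.00037). Such paralogs can share reads. eef1e1 (1.06, adjusted p = 0.051) and eef1d (0.68, adjusted p = 0.061) were highest in that list, and eef2b, the main elongation factor of translocation, stood at -0.32.

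Other TOP mRNAs were taken from a list of gene names, and their start sequences were not examined here. Of 12 tested, 2 were higher and 0 lower, with a median of 0.13, where 13.7% of all genes were called higher and 7.48% lower. The 2 were impdh2, an enzyme of guanine nucleotide synthesis, at 1.41 (adjusted p = 0.020) and the poly(A)-binding protein gene pabpc1b at 1.36 (adjusted p = 0.015); vim (-0.84) and npm1b (-0.31) were lowest, with adjusted p = 0.21 and 0.35. Of 84 ribosome biogenesis genes 3 were higher and 2 lower, with a median of -0.034, so both shares were under those of all genes. The higher ones were rrp36 (1.05), imp4 (0.82) and rcl1 (0.82), all of small-subunit rRNA processing; urb2 (-0.71) and the assembly ATPase mdn1 (-0.69) were lower, and emg1 at -0.80 did not pass. RNA polymerase I and its factors, which transcribe ribosomal RNA, had 0 higher and 4 lower of 13, with a median of -0.39. polr1b, the second largest subunit, averaged 8.30 ± 0.287 CPM in nAtf6 TG livers and 15.8 ± 4.37 in siblings (-0.93, adjusted p = 0.022), and rrn3 (-0.52), taf1b (-0.67) and ubtfl (-0.60) were also lower, with adjusted p from 0.043 to 0.045. polr1d (-0.84), taf1a (0.32) and polr1h (0.48) did not pass the test.

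Of 21 genes of the Tor pathway and regulators of TOP mRNAs, 1 was higher and 4 were lower, with a median of -0.070, against 13.7% higher and 7.48% lower of all genes. sesn2, an inhibitor of Tor complex 1 induced by stress, averaged 9.48 ± 3.71 CPM in nAtf6 TG livers and 2.73 ± 0.292 in siblings (1.79, adjusted p = 0.0096). deptor, a Tor-binding inhibitor, stood at -1.69 (adjusted p = 0.039), and an eIF4E-binding protein gene on the symbol eif4ebp3 (ENSDARG00000054916) at -1.23 (adjusted p = 0.027). tsc2, a brake on Tor complex 1, stood at -0.79 (adjusted p = 0.040) and a myc identifier (ENSDARG00000045695) at -0.85 (adjusted p = 0.010). trib3, second highest at 1.05, did not pass (adjusted p = 0.23). Proliferation genes had 1 higher of 14, an rrm2 identifier (ENSDARG00000078069) at 1.44 with adjusted p = 0.040; mki67 stood at 0.78, top2a at -0.56 and ccna2 at -0.41, without passing. Of 73 mitochondrial ribosomal protein genes, a separate family, 7 were higher and 1 lower, both under the shares of all genes, with a median of 0.14; mrpl28 (1.48) and mrps9 (1.35) were highest, mrps22 (-0.65) was the 1 lower and mrpl46 (-0.49) did not pass.

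The calls in these lists moved with single pools, as those of all genes did. Without sibling library 2, 37.9% of all genes were called in either direction, against 21.2% with it. Of the 7598 genes called without it, 3888 were higher. In that fit 14 of 38 initiation factors and 5 of 12 other TOP mRNAs were called higher. So were 11 of 84 biogenesis genes and 20 of 73 mitochondrial ribosomal protein genes. The calls of RNA polymerase I factors came to 1 higher and 2 lower, and those of the Tor list to 3 higher and 2 lower. With any 1 of the other 5 libraries left out instead, 6.78% to 28.6% of all genes were called in either direction. In those fits 1128 to 3508 genes were called higher. Then 1 to 8 initiation factors, 0 to 3 other TOP mRNAs, 0 to 4 biogenesis genes and 2 to 12 mitochondrial ribosomal protein genes were called higher and 0 to 3 RNA polymerase I factors lower, with 0 of the last, and 0 lower in the Tor list, without nAtf6 TG library 2 or 3. Marker genes of other cell types were summed over each list in TMM-scaled CPM. The groups of 5 dpf were apart in the endothelial, stellate and biliary list and, by a small margin, in the exocrine pancreas list. In the muscle, intestine, erythrocyte and leukocyte lists they overlapped. By gene, 6 of 11 exocrine pancreas, 4 of 13 intestine, 2 of 11 muscle and 1 of 5 erythrocyte identifiers tested were called lower. In these lists 0 were called higher, where 13.7% of all genes were called higher and 7.48% lower. With 1 library left out, 2 to 11, 0 to 8, 0 to 10 and 0 to 5 of them were called lower, in the same order. Calls over all genes moved too: 1361 without nAtf6 TG library 2, 1128 of them higher, and 7598 without sibling 2, 3888 of them higher. Exocrine pancreas markers (11 identifiers, 66.7% of the list's names matched) summed to 1716, 1026 and 1018 in nAtf6 TG livers, against 3850, 1811 and 4303 in siblings, and muscle markers to 97.9 to 486 in nAtf6 TG livers, against 293 to 852 in siblings. Endothelial, stellate and biliary markers summed to 962 to 1760 in nAtf6 TG livers, against 634 to 760 in siblings. That sum was carried by krt18a.1, with 678 ± 362 CPM in nAtf6 TG livers and 156 ± 6.61 in siblings, and anxa4, with 540 ± 63.8 and 305 ± 25.4 (SD, n = 3 each). The endothelial stab2 had 21.3 ± 12.8 CPM in nAtf6 TG livers and 3.01 ± 1.23 in siblings (log2 fold change 2.81, adjusted p = 0.017 by edgeR). On the log2 scale fli1 stood at 0.47, hand2 at 0.39, cdh5 at 0.21, kdrl at -0.082 and the biliary cldn15la at -1.81. In that list 7 of 10 identifiers were above 0, where 47.7% of all genes were. Intestine markers summed to 1705 to 2469 in nAtf6 TG livers, against 2349 to 3819 in siblings, erythrocyte markers (63.6% of names matched) to 20.4 to 44.1 against 39.7 to 57.4, and leukocyte markers (77.8% matched) to 14.6 to 55.1 against 10.5 to 37.2. Of 9 leukocyte identifiers tested, 4 were called higher, coro1a at 3.56 among them, and 2 lower, where 13.7% and 7.48% of all genes were. With 1 library left out, 1 to 6 were called higher and 0 to 2 lower, beside 6.78% to 37.9% of all genes called in either direction. The mfap4 identifier ENSDARG00000090557 had 1.92 ± 0.196 CPM in nAtf6 TG livers and 17.1 ± 11.3 in siblings. The part of these cells in the values above was not tested; fewer cells of a type and less RNA per cell cannot be told apart in pooled livers.

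At 78 hpf the values of the ribosomal protein genes lay slightly and rather evenly above 0 for the Natf6-named libraries, and none passed the test. By edgeR 0 of 81 were called, where 0% of the 14555 genes tested were; 0 members had an unadjusted p under 0.05, against 5.97% of all genes, and DESeq2, which called 180 genes, called none of them. The median log2 fold change was 0.13, beside -0.023 over all genes, and the middle 50% of members lay between 0.097 and 0.16. 79 of 81 were above 0, against 47.9% of all genes, and in 62 of 81 both Natf6-named libraries exceeded both SIBS-named ones, where 19.9% of all genes did; 0 were apart in the other direction, against 19.3%, and in either direction 39.1% of all genes were. Standard errors, with a median of 0.19, were larger than most of these differences. The difference lay between -0.5 and 0.5 for 80 of 81 genes, rpl7l1 being the exception, against 65.7% of all genes. Intervals lay within -1 to 1 for 79 of 81 genes, against 29.4% of all genes. Members share their libraries, so this evenness counts libraries and not genes: Natf6-named library 2 was the highest of the 4 for 75 of 81 members, and its members lay a median of 0.11 above their mean, against 0.012 in Natf6-named library 1 and -0.063 and -0.073 in the SIBS-named libraries.

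rpl7l1 again had the highest value, with 96.7 and 143 CPM in the Natf6-named libraries, against 75.7 and 92.0 in the SIBS-named ones (0.52, standard error 0.29, adjusted p = 0.81). rpl29, which stood at 517 and 574 against 473 and 423 CPM, had 0.28 (adjusted p = 0.82). rpl22l1 (0.27), rpl5 ENSDARG00000015862 (0.24), rpl23a (0.23) and rps16 (0.21) followed. Near the lower end lay rplp2 (-0.0099), rpl31 (0.0060), rplp0 (0.0080), rps20 (0.0083) and rps2 (0.021). rplp0 was nearly level, with 3981 and 3976 CPM in the Natf6-named libraries, against 3915 and 3998 in the SIBS-named ones, and rps20 had 1739 and 1802 against 1756 and 1765.

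The subunits had like values at 78 hpf, with medians of 0.13 for large and 0.12 for small. The 12 Diamond-Blackfan anaemia identifiers ran between 0.031 and 0.24 with a median of 0.13. The most abundant members rpl3, rpl4 and rpl7a had 0.11, 0.19 and 0.12. Of the 9 within-library ratios 2 had groups that did not overlap, the rpl5 pair with 1.08 and 1.14 against 1.01 and 0.991, and the rps26 pair with 1.831 and 1.949 against 1.829 and 1.729; 2 against 2 libraries allow no exact permutation p below 0.333. rpl7l1 over rpl7 was 0.0522 and 0.0719 in the Natf6-named libraries, against 0.0427 and 0.0542 in the SIBS-named ones, which overlapped. The stalk ratios overlapped too, with rplp2 over rplp0 at 0.103 and 0.109 against 0.0896 and 0.125. Of the other lists none had a called gene; medians were 0.19 for initiation factors, 0.20 for ribosome biogenesis, 0.23 for mitochondrial ribosomal proteins, 0.096 for other TOP mRNAs and 0.050 for RNA polymerase I factors.

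Other cell types varied strongly between the pools of 78 hpf. Exocrine pancreas markers summed to 220 and 7103 TMM-scaled CPM in the Natf6-named libraries, against 57.0 and 32.2 in the SIBS-named ones, and muscle markers to 1230 and 98.7 against 1846 and 8069. Hepatocyte markers summed to 36903 and 40651 in the Natf6-named libraries, against 69317 and 26428 in the SIBS-named ones, which overlapped. Library 2 of the Natf6-named group, highest for most members, was also the one with the pancreas markers, and the part of those cells in the members' values was not tested.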

How the data were processed

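The authors deposited raw read counts per Ensembl gene for 10 libraries; the submitters' processing notes name FastQC 0.11.5, Trimmomatic, TopHat2 2.1.0, HTSeq, DESeq2 and GRCz10 for 5 dpf, and CASAVA, MultiQC 1.7, HTSeq, DESeq2 and GRCz10 for 78 hpf. Strand setting and annotation release are not given in the sources used here. HTSeq entries that name no gene (35.3% to 47.4% of 78 hpf reads, 13.4% to 17.3% aligned more than once) were left out; multiply aligned reads bear on near-identical paralogs.

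Names came from a table naming 26269 of 32105 identifiers. Counts were tested within each age with edgeR 4.0.16 (R 4.3.3; filterByExpr, TMM, quasi-likelihood, Benjamini-Hochberg over all genes, adjusted p under 0.05); DESeq2 1.42.0 was an alternative. Scripts were tested on simulated data. CPM of members uses TMM-scaled library sizes, and that of atf6 and hspa5 plain totals. Levels were not divided by length, since no transcript lengths were used here, although this had been planned.

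The members and gene lists were chosen with earlier results of these data known. Genes were named by rule: stalk genes, paralogs and variants, the 6 highest and 6 lowest differences at each age, the 5 highest levels, Diamond-Blackfan and extra-ribosomal members, and the 2 highest and 2 lowest of each list, with all called genes of RNA polymerase I, Tor and biogenesis added after their values were seen. A few genes that this rule names are not reported here; they stay in the counts and medians of the whole family and of their list. Each library is 1 pool of livers. No label ties the 5 dpf numbers to a shared clutch. The 78 hpf titles number the clutches, with a correlation of -0.145 between same-numbered libraries after subtraction of group means.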

Additional observations from a re-analysis of the deposited data

How the results depend on the processing

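Between 0 and 2 ribosomal protein genes were called at 5 dpf under every setting tried, where 6.78% to 37.9% of all genes were. With upper-quartile factors it was 1 (rps20, -0.72, adjusted p = 0.041 by edgeR), where 24.2% of all genes were called. The median of all genes was also shifted there to -0.27 (-0.24 with DESeq2 and -0.20 without a filter). With each library left out it was 0 to 2 (2 without sibling 2, where 37.9% of all genes were called). The median at 5 dpf was -0.20 to 0.15 with each library left out. With nAtf6 TG libraries 2 and 3, the closest pair, summed, 0 members were called and the median was -0.033. Over all genes 7.07% were then called, against 21.2% with the libraries apart. At 78 hpf 0 members were called under every setting with no library left out. Of all genes 0% to 1.08% were called in those settings, most with DESeq2, so the 0 does not set the members apart. The median was 0.28 in 1 model of all 10 libraries and 0.10 to 0.21 with each library left out. With a replicate block by number 0 members were called, where 16.9% of all genes were at 5 dpf and 0% at 78 hpf. The medians of the members were then -0.046 at 5 dpf and 0.13 at 78 hpf. At 5 dpf the deviations of libraries 1, 2 and 3 from their group means correlated with those of the same number in the other group at 0.0915, 0.0697 and -0.072, and the numbers were taken as names only. At 78 hpf the main fit, the clutch block and the crossed numbers each called 0 of all genes, so there was no call that could change.

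Counts of members whose groups do not overlap, and of intervals within -1 to 1, were recomputed under settings chosen after seeing the data. At 5 dpf the number apart was 4 (all lower, where 17.2% of all genes were), but 25 on library totals alone (15 higher, 10 lower, where 24.8% and 11.3% of all genes were). With each library left out it was 2 to 49. It was 2 without nAtf6 TG 2 (1 higher and 1 lower, where 22.9% and 18.6% of all genes were) and 22 without sibling 1 (all lower, where 20.4% of all genes were). Without sibling 2 it was 49 (47 higher and 2 lower, where 31.0% and 34.4% were). At 78 hpf the number apart was 62 (all higher, where 19.9% of all genes were), and 49 on library totals (all higher, where 19.5% were). The intervals within -1 to 1 at 78 hpf were 79, and 0 to 78 with a library left out (4 without Natf6-named library 1, where 2.02% of all genes had such an interval, and 0 without library 2, where 3.16% had, but 77 and 78 without SIBS-named library 1 and 2). The lone library of a group is assumed there to vary like the others, and the cause of the difference was not tested.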
